A study of Mus musculus with 13 samples.

Results

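The transcriptome of the brain after 2 weeks of recovery from cuprizone was compared with that of mice that had never received it. Cuprizone is a copper chelator given in chow, and the recovery (RCV) mice had eaten chow with 0.3% cuprizone for 4 weeks and normal chow for the next 2 weeks. The control (CTL) mice had eaten normal chow for all 6 weeks. Members of the comparison were chosen by the treatment field of the sample labels, which gave 4 RCV and 5 CTL libraries, 9 of the 13 bulk RNA-seq libraries of the series. RCV libraries have titles starting with "Veh", but the treatment field places them in the recovery group, and that field was followed. The 4 other libraries came from mice taken at the end of 4 weeks of 0.3% cuprizone (CPZ), and their levels are given beside those of RCV and CTL. CPZ mice were thus taken at week 4 of the study, and RCV and CTL mice at week 6. Without controls taken at week 4, diet and time cannot be told apart in comparisons with CPZ. All mice were male wild-type C57BL/6J, 6 to 8 weeks old according to the labels and about 10 weeks old according to the methods of the study. The protocol text of the labels gives 3 CPZ, 3 RCV and 4 CTL mice, while the study's account of its bulk samples has the same number per group as the deposited libraries, and all 13 were used. Each library was made from poly(A) RNA of a snap-frozen hemisphere, so every value is an average over neurons, glia and vessels. In such bulk samples, fewer cells of a type and less RNA per cell cannot be told apart.

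Cuprizone kills mature oligodendrocytes, the cells that make myelin, while most other brain cells survive. Microglia, the resident phagocytes of the brain, then gather around the damaged myelin and take up its debris, and astrocytes enlarge and produce more of their intermediate filaments. When normal chow returns, oligodendrocyte precursors mature into new myelin-forming cells. Recovery on normal chow thus lets myelin genes and the glial response be read in the same tissue.

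The estimated counts per library summed to between 5422264 and 7486387 in CTL and between 4605100 and 6990717 in RCV. Levels are given as CPM, counts divided by the library size after TMM scaling, which do not correct for gene length. Differences are log2 fold changes of RCV over CTL with their standard error (SE) from edgeR's quasi-likelihood test, fitted to all 13 libraries. A gene was called when its p value, adjusted by the Benjamini-Hochberg method over the 14985 genes tested, was below 0.05. These p values measure the spread between libraries, each of which is called a mouse below. "Called" refers to edgeR unless DESeq2 is named.

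After 2 weeks of recovery, 56 genes (0.374% of those tested) differed between RCV and CTL. Of these, 54 were higher in RCV and 2 were lower, 0.36% and 0.0133% of the genes tested. DESeq2 called 125 higher (0.834%) and 6 lower (0.04%), and all 56 were among them, while limma-voom called 16 of the 56 and no other gene. Of the 12 rises of smallest p, limma-voom called C4b, Lag3, Gfap, Cybb and Lgals3bp. It did not call Clec7a, Itgax, Ly9, AU020206, C3ar1, Ptprc or Myo1f. Of the 54 higher genes, 35 belonged to at least 1 of the gene lists used here. Examples are the lists of microglial receptors, antigen presentation, complement and reactive astrocytes. Together the lists held 639 of the genes tested. They were chosen with earlier results of these data known, so the 35 are a description, and enrichment was not tested. None of the 54 belonged to the list of mature oligodendrocytes, but that list does not hold Sirt2, a called gene that is abundant in myelin. The median log2 fold change of the 54 higher genes was 1.69, with a range from 0.30 to 5.28, against a median of -0.00443 over all genes tested. In 42 of the 54 the log2 fold change was at least 1. Many started from a very low level, since 15 of them had a mean below 1 CPM in CTL, and 5 had a mean of at least 100 CPM. For each of the 56 called genes, the RCV libraries did not overlap the CTL libraries. This was also true of 2.21% of all genes tested on the higher side and 0.687% on the lower side. An unadjusted p below 0.05 was found for 4.03% on the higher side and 2.17% on the lower side. Counts for gene lists below are to be read beside these shares over all genes.

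The 4 RCV mice were not equally far from CTL. Among the 54 higher genes, RCV replicate 3 was the lowest RCV library for 34 and RCV replicate 2 the highest for 29, with RCV replicate 4 the highest for 21. The number of higher calls changed with the animals that were kept. It was 21 without RCV replicate 2, 32 without RCV replicate 1, 26, 29, 30 and 28 without CTL replicates 1, 3, 4 and 5, and within 1.5 times the full count without the remaining libraries. Of the 56 calls, 21 held whichever library was left out, and the other 35 were each lost without RCV replicate 2. The log2 fold change of every called gene kept its sign in all of these fits.

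**Figure D1:**
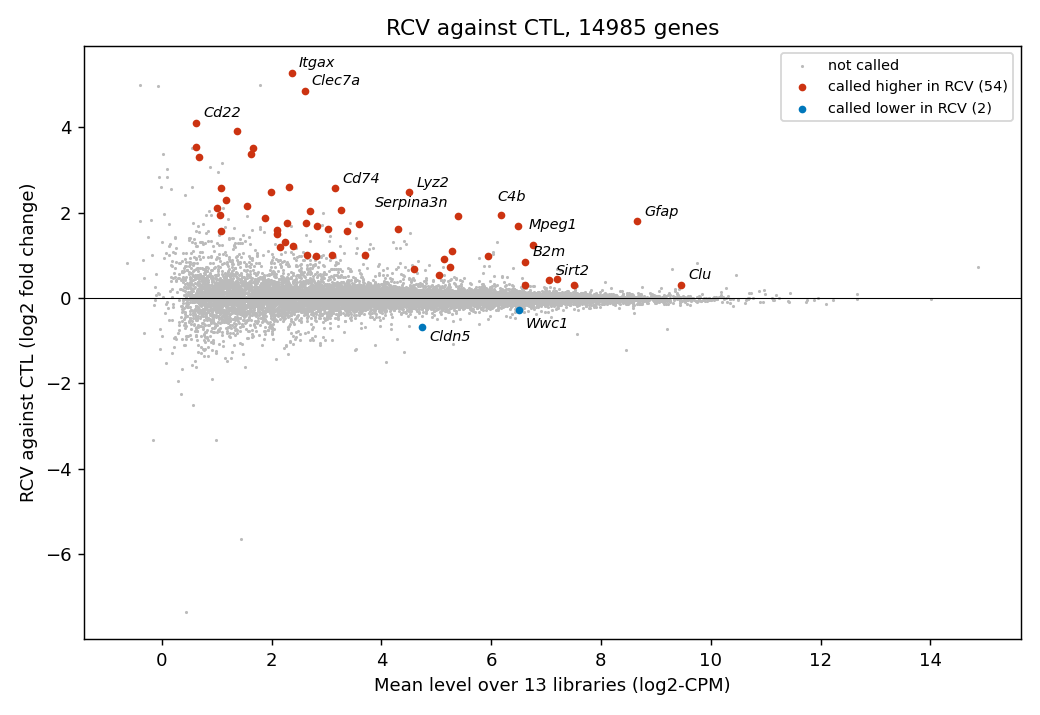
Each point is a gene tested, with its mean level over the 13 libraries (log2-CPM) on the horizontal axis and its log2 fold change of RCV against CTL on the vertical axis. The 54 genes called higher in RCV (red) reached a log2 fold change of 5.28, while the 2 genes called lower (blue), Cldn5 and Wwc1, lay at -0.68 and -0.28.

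The complement gene C4b had the smallest adjusted p of the comparison. C4b encodes the fourth complement component, whose fragments mark surfaces for clearance, and is made in the brain mainly by astrocytes and oligodendrocytes. The gene lies at chromosome 17, bases 34728380 to 34743882, minus strand, of mm10. Its level in the CTL mice was 28.8, 28.8, 31.5, 34.4 and 26.4 CPM. In the RCV mice it was 113, 136, 108 and 103 CPM, so the lowest RCV mouse was above the highest CTL mouse. The log2 fold change was 1.94 (SE 0.09, adjusted p = 4.68e-09, edgeR's quasi-likelihood test), a 3.83-fold rise. CPZ mice had 143, 136, 131 and 144 CPM, and the highest RCV mouse lay among them. The difference of CPZ from RCV was 0.27 on the log2 scale and did not pass the test (adjusted p = 0.0746). Reads of the near-identical paralog C4a may be shared with C4b in these estimated counts.

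C3ar1, the receptor for the C3a fragment, which microglia carry, rose from 1.495, 1.200, 1.38, 2.91 and 2.02 CPM in CTL to 7.48, 9.23, 5.004 and 7.59 CPM in RCV (log2 fold change 2.03, SE 0.29, adjusted p = 0.00511). Unlike C4b, it was far below its CPZ level of 31.5, 29.7, 17.5 and 21.2 CPM. Clu, the abundant astrocytic chaperone clusterin that also restrains complement, rose from 634 ± 50.8 CPM (SD, n = 5) to 787 ± 33.02 CPM (SD, n = 4), a log2 fold change of 0.31 (SE 0.06, adjusted p = 0.0479). Its CPZ level of 732 ± 38.3 CPM (SD, n = 4) was not separated from RCV by the test (CPZ against RCV -0.10, adjusted p = 0.447). The call of Clu was lost without RCV replicate 2 (adjusted p = 0.191). Of the 19 complement genes tested, these 3 were called higher and none lower (0.36% and 0.0133% over all genes). In 9 of the 19, the RCV libraries were all above CTL (2.21% over all genes). The chains of C1q, the starter of the classical pathway, had RCV means of 69.8 ± 15.1 CPM for C1qa, 61.4 ± 13.4 CPM for C1qb and 59.03 ± 9.06 CPM for C1qc. Their CTL means were 28.04 ± 0.971, 30.1 ± 4.47 and 28.1 ± 3.19 CPM (SD, n = 5). The RCV mice were above all CTL mice for each chain, and the adjusted p values were 0.0556, 0.15 and 0.122 with edgeR and 4.71e-07, 0.000421 and 0.000129 with DESeq2. DESeq2 thus called all 3 chains, and 8 complement genes in all.

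Astrocyte genes were called as well. Gfap, the intermediate filament of astrocytes (chromosome 11, bases 102887336 to 102900912, minus strand), had 161, 138, 195, 194 and 138 CPM in the CTL mice. It had 473, 755, 481 and 594 CPM in the RCV mice and 1007, 871, 791 and 891 CPM in the CPZ mice. The 3 groups did not overlap. The RCV rise over CTL was 1.80 on the log2 scale (SE 0.15, adjusted p = 0.000109), and CPZ was still higher than RCV by 0.63 (adjusted p = 0.0276). Serpina3n, a secreted protease inhibitor of reactive astrocytes, stood at 17.9, 10.5, 13.5, 22.3 and 20.2 CPM in CTL and 55.1, 99.8, 44.8 and 55.3 CPM in RCV (log2 fold change 1.93, SE 0.27, adjusted p = 0.00902). RCV replicate 2 carried the highest Gfap and Serpina3n of the group, and its Serpina3n level was inside the CPZ range of 67.4 to 103 CPM.

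Aqp4, Slc14a1 and Prdx6 rose by smaller factors. Aqp4, the water channel of the endfeet, rose from 119 ± 11.5 to 161 ± 16.5 CPM (log2 fold change 0.44, SE 0.09, adjusted p = 0.0384). Slc14a1, a urea transporter, rose from 15.2 ± 1.96 to 24.2 ± 3.47 CPM (0.67, SE 0.11, adjusted p = 0.0138). Prdx6, a peroxiredoxin that repairs oxidized phospholipids, rose from 158 ± 7.60 to 194 ± 9.67 CPM (0.30, SE 0.06, adjusted p = 0.0331). Each of these means is over 5 CTL or 4 RCV mice with its SD. Between CPZ and RCV, Slc14a1 differed (0.77, adjusted p = 0.000514), while Aqp4 and Prdx6 did not pass (0.10 and 0.07, adjusted p = 0.609 and 0.597). Without RCV replicate 2, the adjusted p values of Aqp4, Slc14a1 and Prdx6 against CTL were 0.171, 0.0758 and 0.15. Gpam, a mitochondrial enzyme that starts the synthesis of glycerolipids, rose by 0.30 (SE 0.06, adjusted p = 0.0342, and 0.153 without RCV replicate 2).

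Of 20 reactive astrocyte genes tested, 3 were called higher, Gfap, Serpina3n and Ggta1, and none lower, while DESeq2 called 7, with a median log2 fold change of 0.58. Ggta1, a galactosyltransferase, rose by 1.01 (SE 0.16, adjusted p = 0.00879). Vim, the gene of the intermediate filament vimentin, had 34.2 ± 7.69 CPM in CTL (SD, n = 5) and 57.1 ± 7.85 CPM in RCV (SD, n = 4), without overlap, with an adjusted p of 0.0771 with edgeR and 0.000803 with DESeq2. Of the 16 astrocyte identity genes, Aqp4 was the member called, and the median was 0.08. The glutamate transporters Slc1a2 and Slc1a3, which mark astrocytes, stood at 0.11 and 0.16 (SE 0.08 and 0.08), and Slc1a2 turned to -0.03 with a covariate for choroid plexus genes.

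**Figure D2:**
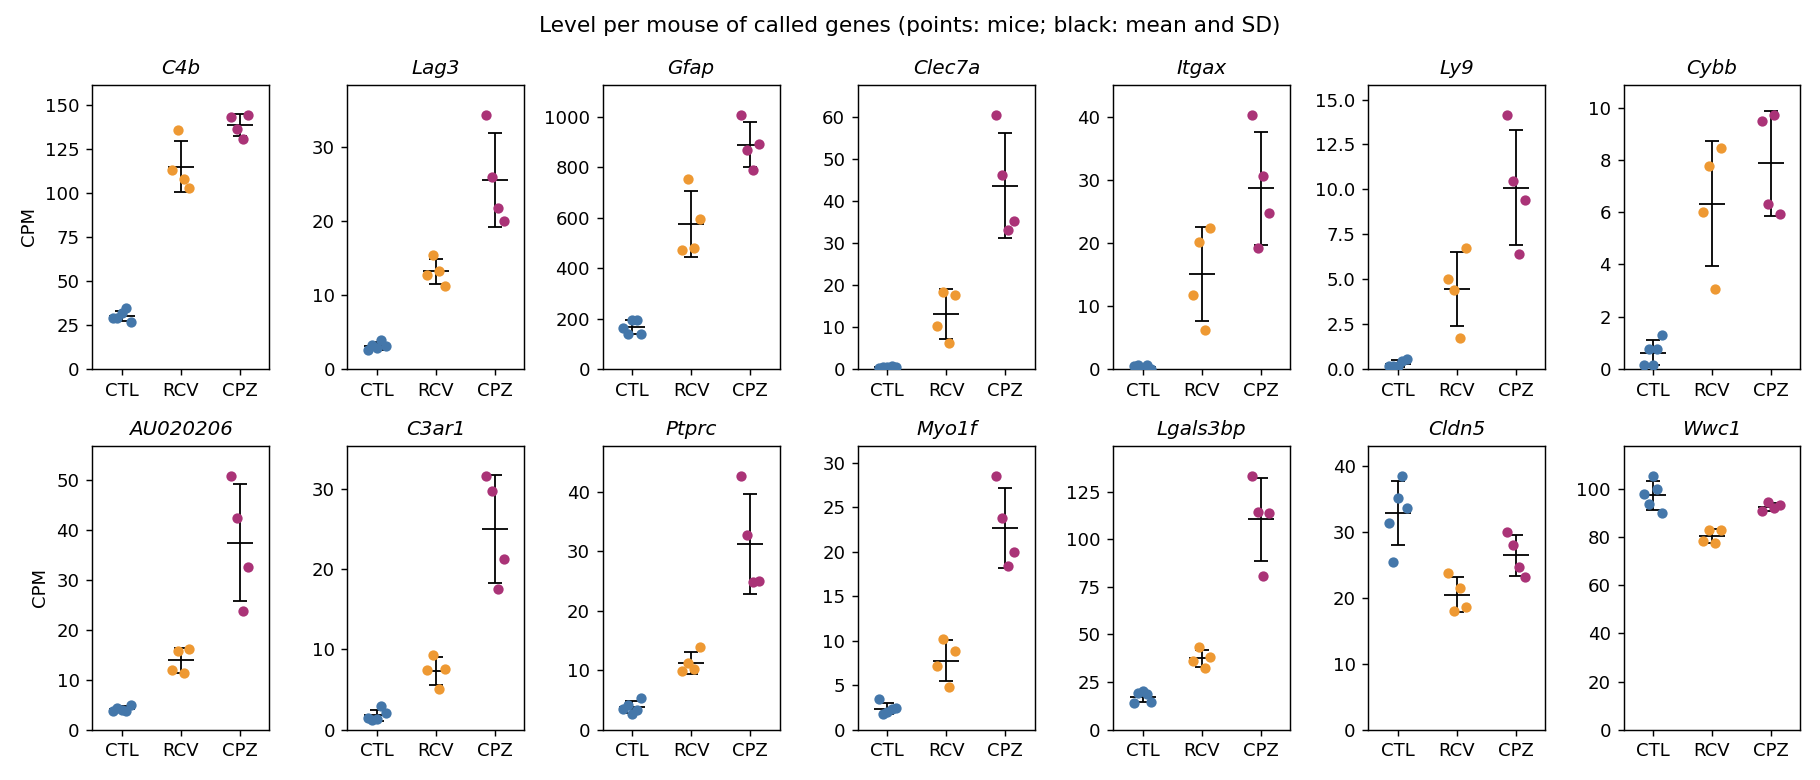
CPM of 14 called genes in each mouse of CTL (n = 5), RCV (n = 4) and CPZ (n = 4), on linear axes from 0 with a separate scale per gene, with the group mean and SD in black. The RCV mice lie above all CTL mice in the 12 higher genes and below them in Cldn5 and Wwc1; among those 12, RCV and CPZ overlap for C4b, Itgax, Ly9 and Cybb.

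Among the 56 called genes, the surface receptors Itgax and Clec7a of microglia had the largest fold changes. With limma-voom neither was called (adjusted p = 0.0806 and 0.0506). Clec7a, a C-type lectin that recognizes beta-glucans and marks microglia around damaged tissue, had 0.272, 0.450, 0.461, 0.612 and 0.367 CPM in the CTL mice, which is 2 to 4 counts per library. It had 10.1, 18.3, 6.16 and 17.6 CPM in the RCV mice and 60.4, 46.1, 33.02 and 35.1 CPM in the CPZ mice. The log2 fold change of RCV over CTL was 4.85 (SE 0.48, adjusted p = 0.000613), and that of CPZ over RCV was 1.75 (adjusted p = 0.00166). The annotation files this gene as a polymorphic pseudogene, although the reference strain makes the protein.

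Itgax, the integrin chain CD11c, had between 0 and 4 counts in each CTL library. It had 11.7, 20.1, 6.16 and 22.3 CPM in RCV, 5.28 above CTL on the log2 scale (SE 0.57, adjusted p = 0.00194). In CPZ it had 40.2, 19.2, 30.5 and 24.7 CPM, a range that holds RCV replicates 2 and 4, and the test did not separate CPZ from RCV (0.93, adjusted p = 0.137). RCV replicate 3 was the lowest of its group for both Clec7a and Itgax.

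Of a list of 25 inhibitory and SLAM family receptors, which dampen or tune immune cells, 14 were tested. Of these 14, 7 were called higher and none lower (0.36% and 0.0133% over all genes). The filter on low counts left out 11 of the 25, and members near 0 in CTL passed it through the other groups. The number called is therefore not comparable with that of well-detected genes, and no median is given. Lag3, an inhibitory receptor that binds MHC class II (chromosome 6, bases 124904361 to 124911705, minus strand), had 2.58, 3.30, 2.77, 3.98 and 3.12 CPM in CTL and 12.8, 15.4, 13.3 and 11.3 CPM in RCV. The RCV mice lay close together and none overlapped CTL or the CPZ mice at 34.3, 26.01, 21.8 and 20.01 CPM. The RCV rise was 2.07 (SE 0.19, adjusted p = 8.8e-05).

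Among the SLAM family receptors, 4 were called higher, Ly9, Cd48, Slamf9 and Cd84. Ly9 had 0.136, 0.150, 0.154, 0.459 and 0.550 CPM in CTL, 1 to 3 counts per library, and 4.98, 4.37, 1.73 and 6.72 CPM in RCV (log2 fold change 3.91, SE 0.49, adjusted p = 0.00194). Cd48 rose by 2.30 (SE 0.36, adjusted p = 0.00849), Slamf9 by 2.11 (SE 0.40, adjusted p = 0.0331) and Cd84 by 1.62 (SE 0.31, adjusted p = 0.0429). Slamf9 and Cd84 lost their calls without RCV replicate 2 (adjusted p = 0.17 and 0.153). Cd22, a sialic acid receptor that restrains phagocytosis, had 3 counts in the 5 CTL libraries together and 43 in the 4 RCV libraries. That is a ratio of 20.4 with a 95% counting interval from 6.54 to 103.0, and the adjusted p was 0.00638. Lilrb4a, an inhibitory leukocyte receptor whose reads may be shared with its paralog Lilr4b, rose by 3.52 (SE 0.53, adjusted p = 0.00849). Members not called included Cd33, at 9.20 ± 1.49 CPM in CTL (SD, n = 5) and 13.8 ± 1.21 CPM in RCV (SD, n = 4), with an adjusted p of 0.244.

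Other receptor genes were called singly. Tlr2, the Toll-like receptor for lipoproteins, rose from 1.55 ± 0.806 to 5.16 ± 0.857 CPM (log2 fold change 1.76, SE 0.35, adjusted p = 0.0407). Its coreceptor Cd14 rose from 1.61 ± 0.313 to 4.63 ± 1.38 CPM (1.51, SE 0.28, adjusted p = 0.0284). The G-CSF receptor gene Csf3r rose from 6.17 ± 1.26 to 12.5 ± 2.09 CPM (1.02, SE 0.21, adjusted p = 0.0479). Cd300c2, an activating receptor of myeloid cells, rose by 1.32 (SE 0.26, adjusted p = 0.0407), and Cd52, a small surface glycoprotein of leukocytes, by 2.48 (SE 0.39, adjusted p = 0.00902). All 5 lost their calls without RCV replicate 2, with adjusted p values between 0.0536 and 0.229. Of 20 Toll-like receptor and myeloid regulator genes tested, Tlr2 and Cd14 were called, DESeq2 called 8, 15 had an unadjusted p below 0.05 on the higher side (4.03% over all genes), and the median was 0.87. The transcription factors Irf5 and Irf8 of myeloid cells stood at 0.90 and 0.97 (adjusted p = 0.0872 and 0.116 with edgeR, 0.0295 and 0.00705 with DESeq2). Of 15 Fc receptor and ITAM signalling genes, Clec7a was called, DESeq2 called 7 and all 15 were above 0, with a median of 1.18. Both list medians are over genes that passed the filter on low counts, which a gene near 0 in CTL can pass through RCV or CPZ. Fcgr1 and Fcgr3, which bind antibody, stood at 1.18 and 1.18 with adjusted p values of 0.0607 and 0.0628 (0.00843 and 9.12e-05 with DESeq2).

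Genes of phagosomes and lysosomes made up a further group. Cybb encodes the catalytic chain of the NADPH oxidase that makes superoxide in phagocytes. It had 0.136, 0.750, 0.154, 0.764 and 1.28 CPM in CTL and 6.01, 7.78, 3.08 and 8.46 CPM in RCV. CPZ mice had 9.51, 6.32, 9.71 and 5.94 CPM, so 3 RCV mice lay among them and RCV replicate 3 below. The rise over CTL was 3.38 (SE 0.44, adjusted p = 0.00254), and CPZ against RCV was 0.31 (adjusted p = 0.685). Cybb was placed in the list of copper, iron and oxidative stress genes, where it was the called member among 25 tested, and the median of that list was 0.05.

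Lyz2, lysozyme, rose from 6.54 ± 3.07 to 36.6 ± 12.05 CPM (log2 fold change 2.49, SE 0.35, adjusted p = 0.011). Mpeg1, a pore-forming protein of phagosomes, rose from 27.1 ± 2.84 to 87.6 ± 18.8 CPM (1.69, SE 0.25, adjusted p = 0.0145). Ctss, the protease cathepsin S that trims the class II invariant chain, rose from 47.9 ± 4.85 to 113 ± 22.97 CPM (1.24, SE 0.21, adjusted p = 0.0284). Without RCV replicate 2, the adjusted p values of Lyz2, Mpeg1 and Ctss were 0.072, 0.086 and 0.15. Slc11a1, the metal ion transporter of phagosomes, rose by 1.76 (SE 0.27, adjusted p = 0.00788), and Naip2, a cytosolic sensor of bacterial proteins with close paralogs, by 1.88 (SE 0.33, adjusted p = 0.0203, and 0.102 without RCV replicate 2). The lysosomal membrane glycoprotein Cd68 rose by 1.63 (SE 0.28, adjusted p = 0.0331, and 0.17 without RCV replicate 2). Of the 28 lysosome and cathepsin genes tested, Lyz2, Ctss and Cd68 were called (0.36% called higher over all genes), and DESeq2 called 8 (0.834% over all genes). In 13 of the 28, the RCV libraries were all above CTL (2.21% over all genes). The list median was 0.28.

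Ptprc, the leukocyte phosphatase CD45, had 3.53, 4.20, 2.61, 3.36 and 5.32 CPM in CTL and 9.82, 11.2, 10.2 and 13.9 CPM in RCV (log2 fold change 1.57, SE 0.22, adjusted p = 0.00511). Myo1f, a myosin of leukocytes, had 3.40, 1.80, 1.998, 2.29 and 2.38 CPM in CTL and 7.18, 10.2, 4.81 and 8.89 CPM in RCV (1.70, SE 0.24, adjusted p = 0.00511). AU020206, a long noncoding RNA gene on chromosome 7, had 3.81, 4.35, 3.996, 3.82 and 4.95 CPM in CTL and 12.02, 15.9, 11.4 and 16.3 CPM in RCV (1.73, SE 0.23, adjusted p = 0.00474). For all 3, RCV lay between CTL and CPZ without overlap, with CPZ means of 31.3, 22.7 and 37.5 CPM. Of 31 leukocyte actin and kinase signalling genes tested, Ptprc and Myo1f were called, DESeq2 called 6, and all 31 were above 0 with a median of 0.75. Members with small p that edgeR did not call included Dock2, an activator of the GTPase Rac, at 1.17 (adjusted p = 0.0607, and 0.000518 with DESeq2), the actin bundler Lcp1 at 0.83 (adjusted p = 0.0885, and 0.00363 with DESeq2) and the integrin beta chain Itgb2 at 1.26 (adjusted p = 0.122, and 0.000518 with DESeq2). Other called genes of leukocyte signalling were Tagap, a GTPase activator, at 3.53 (SE 0.56, adjusted p = 0.00879), and Klhl6 at 1.60 (SE 0.32, adjusted p = 0.0407). Ccdc88b and Neurl3 stood at 1.19 and 1.57 (SE 0.24 and 0.31, adjusted p = 0.0407 and 0.0399). Of these 4, Tagap held without RCV replicate 2 and the others did not.

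Markers of the cell types that such genes can come from were read beside these results. The 31 disease-associated microglia genes tested held 7 calls with edgeR and 17 with DESeq2, and had a median of 1.27. Members near 0 in CTL, such as Itgax and Clec7a, passed the filter through the other groups. This median is therefore not comparable with that of well-detected genes. The 18 homeostatic microglia genes held no call with edgeR and 3 with DESeq2. Of these 18, 17 were above 0 and 1 below, and the median was 0.41. On the higher side, 7 had an unadjusted p below 0.05 (4.03% over all genes) and 6 did not overlap CTL (2.21% over all genes). The highest member was Fcrls at 0.73, and the 1 below 0 was Tmem119. Tmem119 had 18.1 ± 1.64 CPM in CTL and 17.3 ± 1.18 CPM in RCV, and P2ry12 had 22.8 ± 3.38 and 23.005 ± 1.33 CPM, with log2 fold changes of -0.06 and 0.01 (SE 0.21 and 0.16). The direction of P2ry12 turned in 5 other fits and without 3 single libraries. Csf1r, the receptor that microglia need to survive, had 87.1 ± 8.80 CPM in CTL and 139.9 ± 11.2 CPM in RCV, without overlap and with an adjusted p of 0.0672 with edgeR and 0.000536 with DESeq2. The summed level of the homeostatic list lay between 433 and 507 CPM in CTL and between 597 and 697 CPM in RCV, and no member was at 0 in all 9 libraries.

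Several known markers of microglia around damaged myelin were above CTL in every RCV mouse, missed the threshold with edgeR and passed it with DESeq2. Cst7, cystatin F, had 0, 1 or 2 counts in the CTL libraries and 39, 41, 7 and 17 in the RCV libraries (adjusted p = 0.0913 with edgeR and 4.54e-07 with DESeq2). Gpnmb, a glycoprotein of lipid-laden phagocytes, had 1.77 ± 0.471 CPM in CTL and 6.98 ± 2.12 CPM in RCV (adjusted p = 0.0975 with edgeR and 1.13e-05 with DESeq2). Apoe, the lipid carrier, had 985 ± 126 and 1434 ± 166 CPM (adjusted p = 0.119 with edgeR and 0.00551 with DESeq2). Bulk RNA does not show which cells this Apoe came from. Spp1, osteopontin, had 7.92 ± 3.41 and 22.3 ± 3.29 CPM (adjusted p = 0.448 with edgeR and 0.0483 with DESeq2). Trem2, the microglial receptor for lipids and debris, stood at 8.76 ± 0.746 and 21.3 ± 6.80 CPM (adjusted p = 0.122 with edgeR and 0.000135 with DESeq2). Lpl and Igf1 overlapped between the groups, with log2 fold changes of 0.92 and 0.39 (SE 0.31 and 0.23). Axl, a receptor for apoptotic cells, and the costimulatory Cd86 stood at 0.49 and 1.04 (adjusted p = 0.0724 and 0.0722 with edgeR, 0.00645 and 0.0616 with DESeq2). Of the 21 genes of lipid uptake and efflux, edgeR called none and DESeq2 called 1, 3 had an unadjusted p below 0.05, and the median was 0.13.

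Blood cells and the macrophages of the brain borders express some of the called genes as well. The list of 25 blood monocyte, granulocyte and lymphocyte genes summed to between 16.7 and 64.7 CPM in CTL and between 15.01 and 58.98 CPM in RCV. Only 3 of the 25 passed the filter on low counts. These 3 alone summed to between 15.1 and 50.4 CPM in CTL and between 11.7 and 55.7 CPM in RCV, so they made up most of the list. Within RCV, their mean log2-CPM was lowest in replicate 3 (0.85) and highest in replicate 4 (3.90). The striatum list had the same lowest and highest RCV replicates (3.30 and 6.44 log2-CPM). The sum therefore cannot be read as a measure of blood cells. Neither edgeR nor DESeq2 called any of them (0 with an unadjusted p below 0.05). The 13 border macrophage genes, of which 5 passed the filter, summed to between 41.6 and 49.9 CPM in CTL and between 44.3 and 59.6 CPM in RCV. Their members Mrc1 and F13a1 stood at 0.44 and -0.37 (SE 0.38 and 0.39), and Siglec1, also an interferon-responsive gene, at 1.86 (SE 0.47, adjusted p = 0.15 with edgeR and 0.0436 with DESeq2). No member of either list was at 0 in all 9 libraries, and their part in the results was not tested.

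Presentation of antigen by MHC class I involved the heavy chains and their shared light chain. B2m, the light chain, rose from 49.8, 53.6, 56.7, 54.6 and 47.1 CPM in CTL to 96.2, 109, 75.6 and 98.01 CPM in RCV (log2 fold change 0.86, SE 0.13, adjusted p = 0.00902, and 0.0536 without RCV replicate 2). The classical heavy chain H2-K1 rose from 19.7 ± 2.85 to 37.1 ± 6.31 CPM (0.91, SE 0.13, adjusted p = 0.0065), and H2-D1 from 34.7 ± 5.12 to 68.7 ± 15.9 CPM (0.99, SE 0.17, adjusted p = 0.0224). The nonclassical H2-Q4 and H2-Q7 rose by 1.02 and 1.95 (SE 0.19 and 0.40, adjusted p = 0.0331 and 0.0493). Without RCV replicate 2, the adjusted p values of H2-D1, H2-Q4 and H2-Q7 were 0.086, 0.15 and 0.191. Heavy chains are close copies of each other, so reads may have been split among them. B2m, H2-K1, H2-D1 and H2-Q4 were higher again in CPZ than in RCV, by 1.25, 0.87, 0.72 and 0.70 (adjusted p = 0.000251, 0.000828, 0.018 and 0.027). H2-Q7 did not pass between CPZ and RCV (0.10, adjusted p = 0.924). Of 16 genes in the MHC class I list, which does not hold H2-Q4, the other 4 were called, DESeq2 called 6, and members of peptide loading such as Psmb8, Tap1 and Tapbp stood at 1.08, 0.78 and 0.22 with adjusted p values of 0.134, 0.344 and 0.801 with edgeR and 0.0481, 0.26 and 1 with DESeq2. Nlrc5, the transactivator of class I genes, stood at 1.48 (SE 0.34, adjusted p = 0.0913 with edgeR and 0.0089 with DESeq2).

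The MHC class II genes Cd74 and H2-Aa had RCV means numerically above those of CPZ. Cd74, the invariant chain that guides class II molecules to endosomes, had 1.495, 4.05, 3.53, 4.74 and 4.77 CPM in the CTL mice. In the RCV mice it had 15.4, 26.9, 10.2 and 35.99 CPM, and in the CPZ mice 16.6, 7.54, 13.9 and 8.91 CPM. RCV replicates 2 and 4 were above every CPZ mouse, while replicates 1 and 3 lay within the CPZ range. The rise of RCV over CTL was 2.58 (SE 0.41, adjusted p = 0.0203, and 0.101 without RCV replicate 2), and CPZ against RCV was -0.91 (adjusted p = 0.211). H2-Aa, the class II alpha chain, had 0.680, 0.900, 2.15, 1.07 and 2.02 CPM in CTL, 4.98, 6.16, 3.27 and 9.76 CPM in RCV and 3.17, 2.67, 5.55 and 1.42 CPM in CPZ. Its rise over CTL was 2.15 (SE 0.43, adjusted p = 0.0429, and 0.153 without RCV replicate 2), and CPZ against CTL did not pass (1.24, adjusted p = 0.0977). The beta chain H2-Ab1 stood at 1.27 ± 0.856, 3.86 ± 1.54 and 2.98 ± 0.945 CPM in CTL, RCV and CPZ, with overlap and an adjusted p against CTL of 0.129 with edgeR and 0.0236 with DESeq2. The peptide loader genes H2-DMa and H2-DMb1 had another order, with 10.6 and 1.94 CPM in RCV below 14.8 and 5.34 CPM in CPZ. Of the 12 class II genes, 9 passed the filter, of which Cd74, Ctss and H2-Aa were called (0.36% called higher over all genes) and DESeq2 called 4 (0.834%). On the higher side, 8 had an unadjusted p below 0.05 (4.03% over all genes). The median was 1.19, over a list whose members near 0 in CTL can pass the filter through RCV or CPZ.

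Of the 27 interferon-stimulated genes tested, all 27 were above 0, with a median of 0.80. On the higher side, 19 had an unadjusted p below 0.05 (4.03% over all genes), 2 were called (0.36%), and DESeq2 called 7 (0.834%). Members near 0 in CTL, such as Cxcl10 with a mean of 0.36 CPM, passed the filter on low counts through the other groups, which limits the median. Among the called members was Lgals3bp, a secreted glycoprotein. Lgals3bp had 14.1, 19.4, 20.1, 18.5 and 14.5 CPM in CTL and 35.9, 43.4, 32.5 and 38.2 CPM in RCV (log2 fold change 1.11, SE 0.15, adjusted p = 0.00511). Outside the list, the interferon-inducible genes Gbp3 (guanylate binding), Ifi207 (a DNA sensor with close paralogs) and Rnf213 (a large ubiquitin ligase) rose by 1.00, 3.31 and 0.73 (SE 0.18, 0.61 and 0.15, adjusted p = 0.0203, 0.0278 and 0.0493). Their adjusted p values without RCV replicate 2 were 0.101, 0.109 and 0.229. Members that missed the threshold with edgeR included Ifit3, Oasl2 and Cxcl10, at 1.18, 1.21 and 2.03 (adjusted p = 0.0847, 0.113 and 0.142 with edgeR, 0.000803, 0.00433 and 0.0254 with DESeq2). The pseudogene Gm8995, of no list, rose by 1.21 (SE 0.24, adjusted p = 0.0378, and 0.123 without RCV replicate 2).

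For 4 of the higher genes, the 250 bases before the RefSeq start (GRCm38.p6, the build of mm10) are shown because they hold a motif of interferon-responsive promoters. Capitals mark the letters of the interferon-stimulated response element (ISRE), searched as GAAANNGAAA on both strands. Sequences run in the direction of the gene, so a match on the opposite strand appears as its reverse complement.
B2m, chr2:122147437-122147686, plus strand: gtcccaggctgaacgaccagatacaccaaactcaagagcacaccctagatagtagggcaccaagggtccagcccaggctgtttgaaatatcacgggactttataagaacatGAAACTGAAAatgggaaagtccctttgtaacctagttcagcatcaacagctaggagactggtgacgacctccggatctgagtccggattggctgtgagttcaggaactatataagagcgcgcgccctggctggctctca
Gbp3, chr3:142559794-142560043, plus strand: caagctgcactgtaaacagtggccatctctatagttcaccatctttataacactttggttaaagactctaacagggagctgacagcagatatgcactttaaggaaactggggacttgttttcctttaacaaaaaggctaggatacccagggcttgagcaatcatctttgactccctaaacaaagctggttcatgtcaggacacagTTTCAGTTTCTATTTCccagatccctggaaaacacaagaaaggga
Ctss, chr3:95526536-95526785, plus strand: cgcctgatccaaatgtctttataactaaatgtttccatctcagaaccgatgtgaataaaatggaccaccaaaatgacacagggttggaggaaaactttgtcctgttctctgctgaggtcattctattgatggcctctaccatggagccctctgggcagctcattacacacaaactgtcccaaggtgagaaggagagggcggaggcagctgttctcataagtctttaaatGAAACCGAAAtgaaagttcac
Cybb, chrX:9469325-9469574, minus strand: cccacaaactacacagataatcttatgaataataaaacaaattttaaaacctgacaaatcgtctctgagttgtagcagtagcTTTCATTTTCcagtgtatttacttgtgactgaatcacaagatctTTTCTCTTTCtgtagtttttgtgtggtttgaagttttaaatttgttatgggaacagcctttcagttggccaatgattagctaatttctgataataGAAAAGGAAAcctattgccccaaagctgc

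The B2m window held the letters at 139 to 130 bases before the start and the Ctss window at 21 to 12 bases before it. Gbp3 held 2 overlapping matches and Cybb 3 separate ones. RefSeq windows could be matched for 11293 of the genes tested, of which 278 (2.46%) held an ISRE match. Among the 41 genes called higher with a window, 5 held it (12.2%), the 4 shown and Ifi207. The gamma-activated sequence, searched as TTCNNNGAA, was in 5.76% of all windows and in none of the 41. GGAAGT, the core bound by PU.1 and other ETS factors, was in 22.1% of all windows and in 11 of the 41 (26.8%), among them Itgax, Ptprc and Tlr2. The motifs were chosen with the called genes known, no test was made, and a match of letters is not a bound site.

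The place of RCV between CTL and CPZ was read for the 54 genes called higher. RCV and CTL libraries enter these readings again, so they are not independent of the calls. Of the 54, 52 were also called between CPZ and CTL (7.66% of all genes were called higher there). Between CPZ and RCV, 41 were higher in CPZ (5.13% of all genes), 1 was lower and 12 were not called. For 40 of the 54, every RCV mouse was below every CPZ mouse. The share of all genes with this order was not counted, so how unusual the 40 are cannot be told. The 12 that were not called between CPZ and RCV were C4b, Itgax, Cybb, Tagap, Serpina3n, Lyz2, Cd74, H2-Aa, Prdx6, Aqp4, Clu and H2-Q7. Both outcomes occurred within groups, since the microglial receptor Clec7a differed between CPZ and RCV while Itgax was not called, and the astrocyte genes Gfap and Slc14a1 differed while Serpina3n and Aqp4 were not called.

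**Figure D3:**
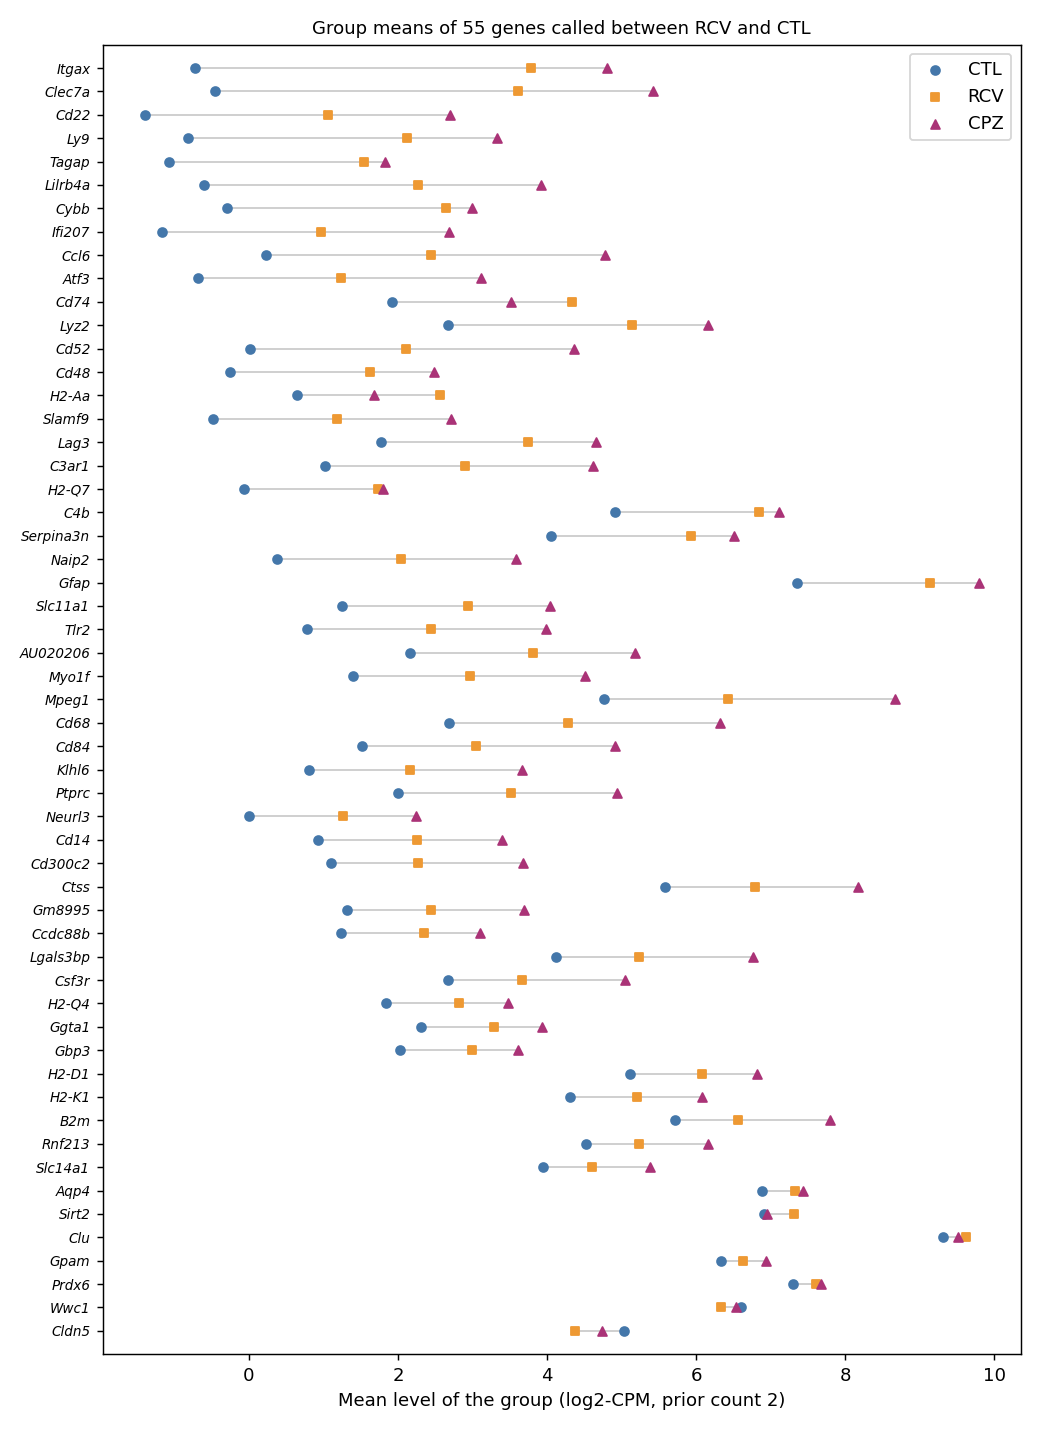
Mean log2-CPM (prior count 2) of CTL (circles, n = 5), RCV (squares, n = 4) and CPZ (triangles, n = 4) for 55 called genes, ordered by log2 fold change of RCV over CTL. RCV lies between CTL and CPZ for most rows; Cd74, H2-Aa, Sirt2 and Clu have their highest mean in RCV, and the RCV mean of C4b, Cybb, Tagap, H2-Q7, Aqp4 and Prdx6 is close to that of CPZ.

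Of 35 mature oligodendrocyte (MOL) genes tested, neither edgeR nor DESeq2 called any between RCV and CTL, 0 had an unadjusted p below 0.05, 19 were above 0 and 16 below, and the median was 0.02, against -1.11 and 27 lower calls between CPZ and CTL (2.5% of all genes). The mean log2-CPM of the list was 5.81 to 6.66 in CTL, 6.02 to 6.79 in RCV and 5.04 to 5.60 in CPZ, and the lowest CTL mouse was below all RCV mice. Mbp, myelin basic protein, stood at 0.19 (SE 0.22, adjusted p = 0.984). Gsn, an actin-severing protein of myelinating cells, was the highest MOL gene at 0.33 (SE 0.17, adjusted p = 0.853), and the carbonic anhydrase Car2 the lowest at -0.25 (SE 0.15, adjusted p = 0.911).

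Of 20 genes of newly formed oligodendrocytes, 17 were above 0 with a median of 0.14, 5 had an unadjusted p below 0.05, edgeR called none and DESeq2 called 1 higher. The noncoding RNA gene 9630013A20Rik, a marker of differentiating cells, had 1.29 ± 0.185 CPM in CTL and 2.33 ± 0.673 CPM in RCV, without overlap and with an adjusted p of 0.448. The 20 precursor genes held no call with edgeR or DESeq2 and 0 unadjusted p below 0.05, and had a median of 0.04, with Pdgfra, the growth factor receptor of precursors, at 0.14 (SE 0.08, adjusted p = 0.891). Of 22 cell cycle genes, edgeR and DESeq2 called none and 1 had an unadjusted p below 0.05, and Mki67, a protein of dividing cells, had 1.98 ± 1.07 CPM in CTL, 2.43 ± 1.200 CPM in RCV and 15.8 ± 5.92 CPM in CPZ. Its log2 fold change of RCV over CTL, 0.24 (SE 0.47), turned to -0.10 without RCV replicate 4.

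Sirt2, a tubulin deacetylase that is abundant in myelin, was the 1 gene among the 54 whose RCV libraries were above all CTL and all CPZ libraries. It had 120.3, 111, 130.3, 128 and 112 CPM in CTL and 129, 115, 117 and 135 CPM in CPZ, but 168, 182, 148 and 142 CPM in RCV. Against CTL the log2 fold change was 0.41 (SE 0.08, adjusted p = 0.0372), that of CPZ against RCV was -0.37 (adjusted p = 0.0126) and CPZ against CTL was 0.04 (adjusted p = 0.835). The call against CTL was lost without RCV replicate 2 (adjusted p = 0.155). S100b, a calcium-binding protein of astrocytes and oligodendrocytes, had its highest mean in RCV but was not called, with 92.7 ± 5.84, 105 ± 4.41 and 91.5 ± 3.99 CPM in CTL, RCV and CPZ (adjusted p = 0.378 against CTL).

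Enzymes of sterol synthesis had mostly negative log2 fold changes, with no call by edgeR and 2 lower calls by DESeq2, Hmgcs1 and Sqle. Cholesterol made in the brain itself is a main component of myelin. Of 24 sterol synthesis genes tested, 22 were below 0, the median was -0.19, and 12 had an unadjusted p below 0.05 on the lower side (2.17% of all genes). In 7 of the 24, the RCV mice were all below CTL (0.687% of all genes). The mean log2-CPM of the list was 5.44 to 5.69 in CTL, 5.33 to 5.39 in RCV and 5.06 to 5.12 in CPZ, and the 3 groups did not overlap. Hmgcs1, an early enzyme of the pathway, had 219, 208, 262, 225 and 233 CPM in CTL and 203, 182, 180.1 and 185 CPM in RCV. CPZ mice had 142, 163, 154 and 155 CPM. The log2 fold change of RCV against CTL was -0.29 (SE 0.07, adjusted p = 0.106 with edgeR and 0.0137 with DESeq2), and that of CPZ against RCV was -0.29 (adjusted p = 0.0222). Sqle, the squalene epoxidase, had 60.9, 53.1, 62.9, 65.6 and 61.6 CPM in CTL and 50.1, 44.5, 49.5 and 52.04 CPM in RCV (-0.31, SE 0.07, adjusted p = 0.0913 with edgeR and 0.0352 with DESeq2). The sterol carrier Stard4 stood at -0.30 (adjusted p = 0.195). In CPZ against CTL, 18 of the 24 were called lower, against 2.5% of all genes.

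Of the 2 genes lower in RCV, Cldn5 encodes claudin 5, the main tight junction protein of brain endothelium (chromosome 16, bases 18776847 to 18778262, plus strand). It had 31.4, 25.5, 35.2, 38.5 and 33.7 CPM in CTL and 23.7, 17.98, 21.6 and 18.6 CPM in RCV, a log2 fold change of -0.68 (SE 0.12, adjusted p = 0.0263). The highest RCV mouse was just below the lowest CTL mouse. CPZ mice had 29.96, 28.1, 24.7 and 23.2 CPM, overlapping both groups, and neither CPZ against CTL nor CPZ against RCV passed (adjusted p = 0.118 for both). The call was lost when any 1 of 6 libraries was left out and with limma-voom, with an adjusted p of 0.137 without RCV replicate 2. The other 15 endothelial genes tested were not called by edgeR or DESeq2, and the list median was -0.04. Pecam1 and Flt1, adhesion and growth factor receptors of endothelium, stood at -0.16 and -0.09 (SE 0.11 and 0.06), and Mfsd2a, the lipid transporter of the blood-brain barrier, at 0.23 (SE 0.15). The mean log2-CPM of the endothelial list was 4.57 to 4.79 in CTL and 4.52 to 4.69 in RCV.

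Wwc1 encodes the scaffold protein KIBRA, which acts in synapses and in Hippo signalling (chromosome 11, bases 35838400 to 35980527, minus strand). It had 97.9, 93.8, 105, 99.99 and 90.04 CPM in CTL, 78.3, 82.9, 77.6 and 83.05 CPM in RCV and 90.8, 94.6, 92.3 and 93.5 CPM in CPZ. All RCV mice were below all other mice. Against CTL the log2 fold change was -0.28 (SE 0.06, adjusted p = 0.0407), and CPZ was above RCV by 0.21 (adjusted p = 0.0415). The call against CTL held without CTL replicate 5 and was lost when any other library was left out, with adjusted p values up to 0.153, and with limma-voom.

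Chemokines, stress genes and neuronal genes completed the reading. Ccl6, a chemokine of myeloid cells, rose from 0.891 ± 0.260 to 5.56 ± 2.46 CPM (log2 fold change 2.60, SE 0.45, adjusted p = 0.0247, and 0.138 without RCV replicate 2). It was the called member among 19 chemokines and cytokines tested, and DESeq2 called 6. Ccl3 and Ccl4, which draw in leukocytes, stood at 2.01 ± 0.497 and 0.752 ± 0.292 CPM in RCV, above all CTL mice, with adjusted p values of 0.132 and 0.0628 with edgeR and 0.00128 and 0.115 with DESeq2. Atf3, a transcription factor induced by stress, rose by 2.59 (SE 0.45, adjusted p = 0.0203, and 0.101 without RCV replicate 2). The other 22 tested genes of the integrated stress response were not called by either tool, and that list had a median of 0.08. Fos, an immediate early gene of active neurons, overlapped between the groups (0.53, SE 0.45), as did the cortical excitatory neuron list, whose 17 genes held no call with edgeR or DESeq2, 2 unadjusted p below 0.05, and had a median of -0.11.

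**Figure D4:**
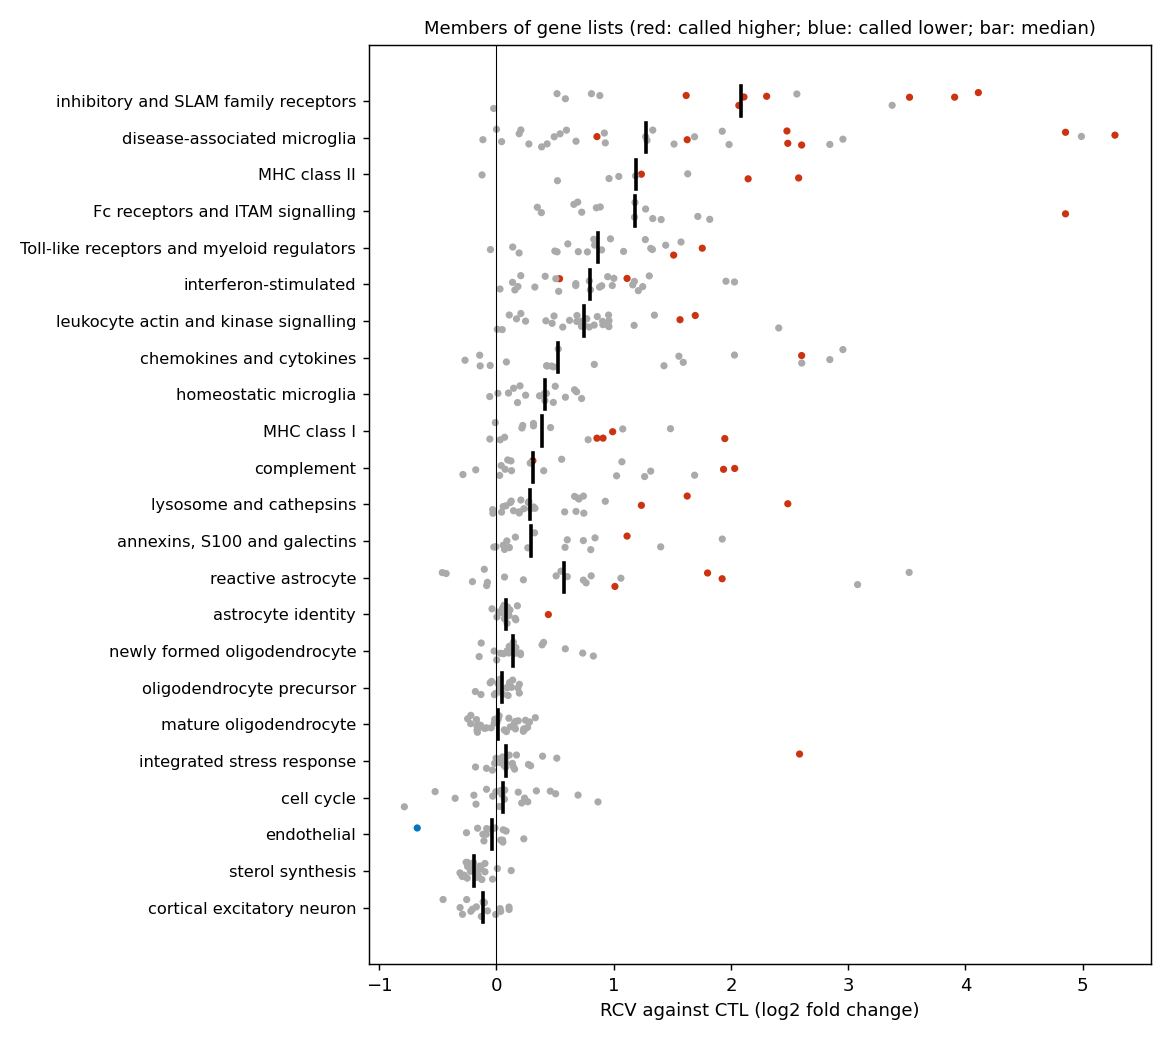
Log2 fold change of RCV against CTL for each tested member of 23 gene lists (points), with the list median as a black bar, genes called higher in red and the gene called lower in blue. Most members of the lists of immune receptors and microglia lie to the right of 0, among genes that passed the filter on low counts, MOL genes lie around 0 and sterol synthesis genes to its left, with a median of -0.19.

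Genes of the choroid plexus and ependyma, which line the ventricles, differed widely among libraries of the same group. All 16 tested were below 0 with a median of -1.03, and neither edgeR nor DESeq2 called any (0 with an unadjusted p below 0.05). Their summed level was between 469 and 2921 CPM in CTL, between 33.7 and 1540.1 CPM in RCV and between 676 and 2494 CPM in CPZ. RCV replicates 3 and 4 had the lowest list means of all 13 libraries, 0.39 and 1.04 log2-CPM, while RCV replicates 1 and 2 lay within the CTL range. With the mean of this list as a covariate, 48 genes were called higher and 1 lower, of which 36 were among the 56. Of 12 hippocampal excitatory neuron genes, 11 were above 0 with a median of 0.22, and edgeR and DESeq2 called none (0 with an unadjusted p below 0.05). Their mean log2-CPM was 3.43 to 4.35 in CTL and 3.07 to 5.01 in RCV. With this mean as a covariate, 51 genes were called higher and 1 lower. The part of either list in the other results was not tested beyond these fits.

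**Figure D5:**
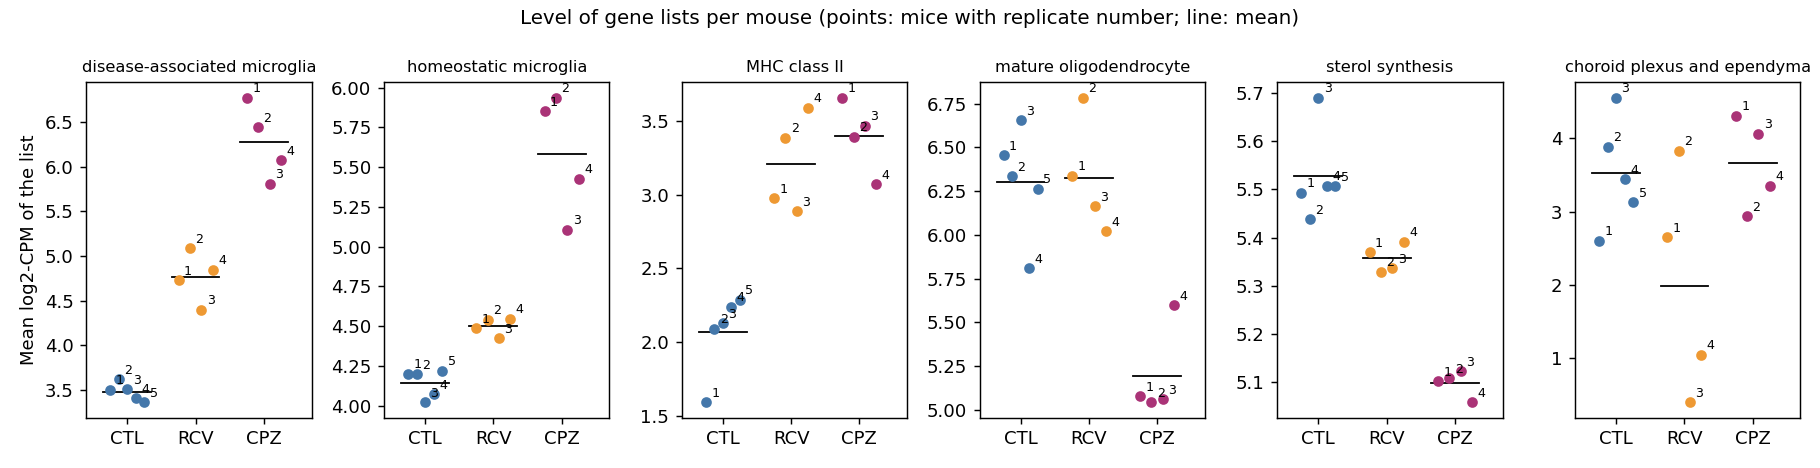
Mean log2-CPM of the tested members of 6 gene lists in each mouse of CTL (n = 5), RCV (n = 4) and CPZ (n = 4), with the replicate number beside each point and the group mean as a line; each panel has its own axis, which does not start at 0. RCV lies between CTL and CPZ for both microglia lists and for sterol synthesis, overlaps CTL for MOL genes, overlaps CPZ for MHC class II, and RCV replicates 3 and 4 are low for the choroid plexus and ependyma.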

How the data were processed

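RNA was taken from snap-frozen brain hemispheres, and poly(A) libraries were sequenced as paired-end reads. Estimated counts were deposited by the authors for every gene and library, and their processing notes and methods name STAR, RSEM and mm10, with versions not given in the sources used here. The authors also deposited TPM values of the same libraries, which correct for gene length and library size and were used for alternatives here. Of the count values, 4.455% were not whole, and all were rounded. The 92 spike-in identifiers had 0 counts.

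Groups followed the treatment field of the labels. Of 55401 rows, 14985 passed the filter of edgeR's filterByExpr on the 3 groups. A gene near 0 in CTL can pass this filter through RCV or CPZ, which limits every list median. The model had a mean per group over 13 libraries, with TMM factors and a robust quasi-likelihood fit (R 4.3.3, edgeR 4.0.16, limma 3.58.1), and Benjamini-Hochberg adjustment over all genes tested. The script was tested on simulated counts. RCV was compared with CTL, and CPZ was read against both. DESeq2 1.42.0, limma-voom, limma on log2 (TPM + 1) and log2 (TPM + 0.1), other filters, a minimum fold change, a fit of RCV and CTL alone, a replicate block, covariates of choroid plexus or hippocampal genes, and each library left out were alternatives. Coordinates are of mm10, from GENCODE M21 by gene identifier (14466 of 14985 matched), and promoter windows of RefSeq GRCm38.p6. Figures were drawn with Python 3.11.15, pandas 2.3.3 and matplotlib 3.10.9.

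The members, gene lists and tests were chosen with earlier results of these data known. All called genes could be named, and some genes covered by the rule are not reported here. By rule, values per library are given for called genes without overlap between RCV and CTL and with a mean log2-CPM of 1 or more, up to the 12 rises and 6 falls of smallest p. Outside this rule, they are also printed for Serpina3n, B2m, Cd74, H2-Aa, Sirt2, Hmgcs1, Sqle and Lgals3, and as counts for Cst7. In each list, called members and up to 4 members of smallest unadjusted p could be named, and in addition Mbp, Gfap, Serpina3n, C4b, Apoe, Trem2, Cst7, Lpl, Spp1, Gpnmb, Igf1, Cd68, H2-D1, B2m, Tmem119, P2ry12, Pdgfra, Mki67, Hmgcs1, Atf3 and Fos.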

Additional observations from a re-analysis of the deposited data

Results flagged for a closer look

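In 5 of 188 groups of libraries that were examined, 1 library stood apart from the rest of its group, by the gap to its nearest neighbour as a share of the group's whole range. Chance flags about 1 group in 20. Cd74 was lowest in CTL replicate 1, with a gap of 0.731 of the range, and the mean of the MHC class II list was lowest in the same library, with a gap of 0.716. Klhl6 was lowest in RCV replicate 3, with a gap of 0.936. The mean of the sterol synthesis list was highest in CTL replicate 3, with a gap of 0.725. The mean of the copper, iron and oxidative stress list was highest in CTL replicate 2, with a gap of 0.758. Each gap was above the 95% critical value of Dixon's test for a group of its size.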

How the results depend on the processing

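Each of the 56 called genes kept the sign of its log2 fold change in every alternative. The number of genes called higher (54) moved to 125 with DESeq2, 16 with limma-voom, 29 with a minimum log2 fold change of 0.25, 19 with at least 10 counts in every library and 16 with limma on log2 (TPM + 1) without a filter. It was between 40 and 81 in the other fits of all 9 libraries, and between 21 and 53 when each library was left out. Of the 56 genes, 56 were also called by DESeq2 and 16 by limma-voom. The number called lower (2) was 6 with DESeq2, 0 with limma-voom, with the minimum fold change and with unfiltered TPM, and 1 without a filter on counts, with at least 10 counts, with RCV and CTL alone, with limma on log2 (TPM + 1) and with either covariate. It was between 0 and 2 when each library was left out. The cause of these changes was not tested, apart from the smaller number of libraries or genes that an alternative's own construction brings.

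Labels number the replicates of both groups, and with the replicate block 41 genes were called higher and 1 lower, of which 32 were among the 56. Cst7 and Gpnmb, not called without the block, were called with it (adjusted p = 0.00202 for both). The correlations of deviations within a number were 0.131, 0.136, -0.199 and 0.112, and 1 of 4 RCV libraries correlated best with its own number. So few values cannot settle whether libraries of the same number are paired or share a batch.

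Among genes that were not called, the log2 fold change of Slc1a2 turned to -0.0305 with the choroid plexus covariate. The log2 fold change of P2ry12 turned to -0.0419 by limma on log2 (TPM + 1), with and without the filter, -0.0432 on log2 (TPM + 0.1), -0.0360 with the hippocampal covariate and -0.124 with the choroid plexus covariate. With libraries left out, P2ry12 ranged from -0.0643 to 0.0616 and Mki67 from -0.0976 to 0.58. Depth limits genes of a few counts per library, such as Cd22 and Ly9 in CTL, and intervals of counts cover counting error only.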

Other observations

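Genes of the annexin, S100 and galectin families, calcium- and sugar-binding proteins of which many are made by reactive glia, had 16 of 18 tested members above 0 and a median log2 fold change of RCV over CTL of 0.30. Lgals3bp was the member called by edgeR, DESeq2 called 4, and 8 had an unadjusted p below 0.05. Lgals3, galectin 3 of phagocytes, had 0.544, 2.10, 1.54, 0.306 and 0.367 CPM in CTL and 2.05, 6.48, 2.502 and 4.12 CPM in RCV (adjusted p = 0.175 with edgeR's quasi-likelihood test and 0.012 with DESeq2). Anxa3 and S100a4 were not called by edgeR (adjusted p with DESeq2 = 0.0363 and 0.272) and stood at 0.80 and 1.40 (SE 0.22 and 0.38).

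Growth factors and TAM ligands held no call by edgeR and 1 by DESeq2 among 23 tested, 4 with an unadjusted p below 0.05 on the higher side and 2 on the lower, with 10 above 0 and a median of -0.06. Of 22 immediate early genes, edgeR and DESeq2 called none, 2 had an unadjusted p below 0.05 and the median was 0.12. Medians of neuron and region lists lay near 0, at -0.02 for 15 inhibitory neuron genes and -0.09 for 14 striatum genes. They were -0.12 for 6 cerebellum and hindbrain genes and -0.06 for 16 thalamus and hypothalamus genes. No list held a call by edgeR or DESeq2, and 1 unadjusted p was below 0.05 among them, in the last list. Single libraries of a group differed widely, however. The mean log2-CPM of the striatum list was 4.75 to 6.69 in CTL and 3.30 to 6.44 in RCV. That of the thalamus and hypothalamus list was 3.13 to 4.59 in CTL and 2.31 to 4.65 in RCV. RCV replicate 3 was the lowest library in both lists, and the part of these differences in the other results was not tested. Vessel wall and meningeal cells gave medians of -0.05 over 12 pericyte and vascular muscle genes and 0.08 over 15 fibroblast genes, without a call by edgeR. DESeq2 called 1 lower in the first and none in the second, and each held 2 unadjusted p below 0.05. Red blood cell genes had a median of 0.34 over 6 genes and summed to between 316 and 374 CPM in CTL and between 367 and 406 CPM in RCV, without a call by edgeR or DESeq2 and with 2 unadjusted p below 0.05.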
